A study of Caenorhabditis elegans with 2 samples.

Results

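The nuclear-encoded respiratory chain genes of Caenorhabditis elegans were examined for peaks of the BED-type zinc finger protein BED-2. Members were taken by name from the Ensembl annotation: protein-coding nuclear genes whose symbol begins with nuo-, cox-, atp-, sdha-, sdhb-, sdhd-, ucr- or cyc- and a digit, together with isp-1, mev-1, gas-1 and asb-2. The rule gave 42 of 19973 protein-coding nuclear genes. It used no measured value itself, but was chosen with earlier results of these data known. Chromatin immunoprecipitation with an anti-GFP antibody was followed by sequencing (ChIP-seq) in 1 group of 2 biological replicates. All animals were whole young adults of strain RW12335, aged 63 hours and synchronised by starvation as L1 larvae after bleaching. Their bed-2 gene on chromosome III carried TY1::EGFP::3xFLAG, allele st12335, inserted with CRISPR, so both replicates are the same edited strain and no untagged strain or second condition was compared. Control libraries named in the deposited text were not analysed here.

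Peaks in whole animals do not separate a site occupied weakly in every cell from a site occupied strongly in few cells. The deposited files are 8 peak lists on assembly ce11, of which 4 pool both replicates. Each peak has a signal, the authors' own peak value, whose scale is not given in the sources used here. Read depth is unknown, because the lists hold no read counts. For each gene the value reported is the highest pooled signal among ranked summits no more than 1000 bp from one of the gene's starts. A gene is said to be bound where a summit of the conservative list lies within that distance. Every peak of that list has a global irreproducible discovery rate (IDR) between the replicates of at most 0.01, which is at least 2.00 as −log10.

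The respiratory chain passes electrons from NADH through complex I, or from succinate through complex II, to coenzyme Q, on through complex III and cytochrome c, and to oxygen at complex IV. Complexes I, III and IV pump protons across the inner mitochondrial membrane, and complex V, the ATP synthase, uses the returning protons to make ATP. Most subunits are encoded in the nucleus and a few core ones in the mitochondrial genome, and in C. elegans partial loss of several of these genes is known to change lifespan and stress responses.

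Summit sequences of cox-5A and atp-5, both bound, are shown first, with mev-1, the member closest to the threshold without reaching it, and sco-1 and coa-3, bound assembly genes outside the naming rule. Each is 101 bases centred on the summit, on the strand of the gene, 5′ to 3′, read from the RefSeq genome of assembly WBcel235. Capitals mark the words ACGCGC and GTACAC on either strand. The windows are chrIII:12905152-12905252 for cox-5A, chrV:11124073-11124173 for atp-5, chrIII:10334080-10334180 for mev-1, chrII:4299385-4299485 for sco-1 and chrII:4603161-4603261 for coa-3. The windows of cox-5A, mev-1, sco-1 and coa-3 contain 10, 10, 13 and 7 CG dinucleotides, and that of atp-5 contains 10.
cox-5A (+ strand): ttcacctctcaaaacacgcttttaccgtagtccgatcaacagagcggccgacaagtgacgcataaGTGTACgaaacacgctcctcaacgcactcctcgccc
atp-5 (− strand): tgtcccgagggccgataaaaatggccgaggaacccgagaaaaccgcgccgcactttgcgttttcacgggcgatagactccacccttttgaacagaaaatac
mev-1 (+ strand): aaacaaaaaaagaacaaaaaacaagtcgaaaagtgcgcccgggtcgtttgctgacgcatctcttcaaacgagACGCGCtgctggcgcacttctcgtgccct
sco-1 (+ strand): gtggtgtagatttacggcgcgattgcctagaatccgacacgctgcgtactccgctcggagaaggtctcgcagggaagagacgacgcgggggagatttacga
coa-3 (− strand): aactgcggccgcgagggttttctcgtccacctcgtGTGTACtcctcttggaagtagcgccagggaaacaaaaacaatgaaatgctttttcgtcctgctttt

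BED-2 peaks of the conservative list lay at 5 of the 42 respiratory chain genes, and these 5 encode subunits of complexes IV and V. They were cox-5A, cox-5B and cox-6A of cytochrome c oxidase, and atp-1 and atp-5 of the ATP synthase. The share of members bound was 11.9% (95% Clopper-Pearson interval 3.98 to 25.6, counting error over genes only), against 2.62% of all protein-coding nuclear genes. This share holds for the members taken by name and not for the whole chain. Of 35 other subunit genes that the naming rule leaves out, given below, 0 were bound. Of the 36 members that had any ranked summit in reach, the same 5 were bound, where 3.25% of the 16092 protein-coding genes with such a summit were. None of the 21 members of complexes I, II and III and cytochrome c was bound, which allows a share of up to 16.1%. Complex IV had 3 of 15 members bound (interval 4.33% to 48.1%) and complex V had 2 of 6 (interval 4.33% to 77.7%). The intervals of the complexes overlap, and the difference between complexes was not tested.

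In signal, members below the threshold lay close to other genes. The median highest signal was 33.3 over the 36 members with a ranked summit, with a range from 14.9 to 164. Over all protein-coding genes with a summit it was 29.8, with quartiles of 22.7 and 38.7, and 25 of the 36 members exceeded that median. The 31 unbound members had a median of 32.6. Medians by complex were 29.7 for complex I, 34.0 for complex II, 33.3 for complex III, 40.4 for complex IV and 41.2 for complex V. Only 10 of the 15 complex IV members had a ranked summit, where 80.6% of protein-coding genes did. With those lacking one set at 0, the complex IV median was 30.1, and those of complexes I, III and V did not change. The 5 complex IV subunit genes with a summit, 3 of them bound, had a median of 88.6. The 5 of its assembly genes with a summit had 31.5. The subunit genes cox-4 and cox-7C and the assembly genes cox-14, cox-17 and cox-19 had no summit and are left out of these medians. The 5 bound members stood between 88.6 and 164, and the highest unbound member had 67.0.

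**Figure D1:**
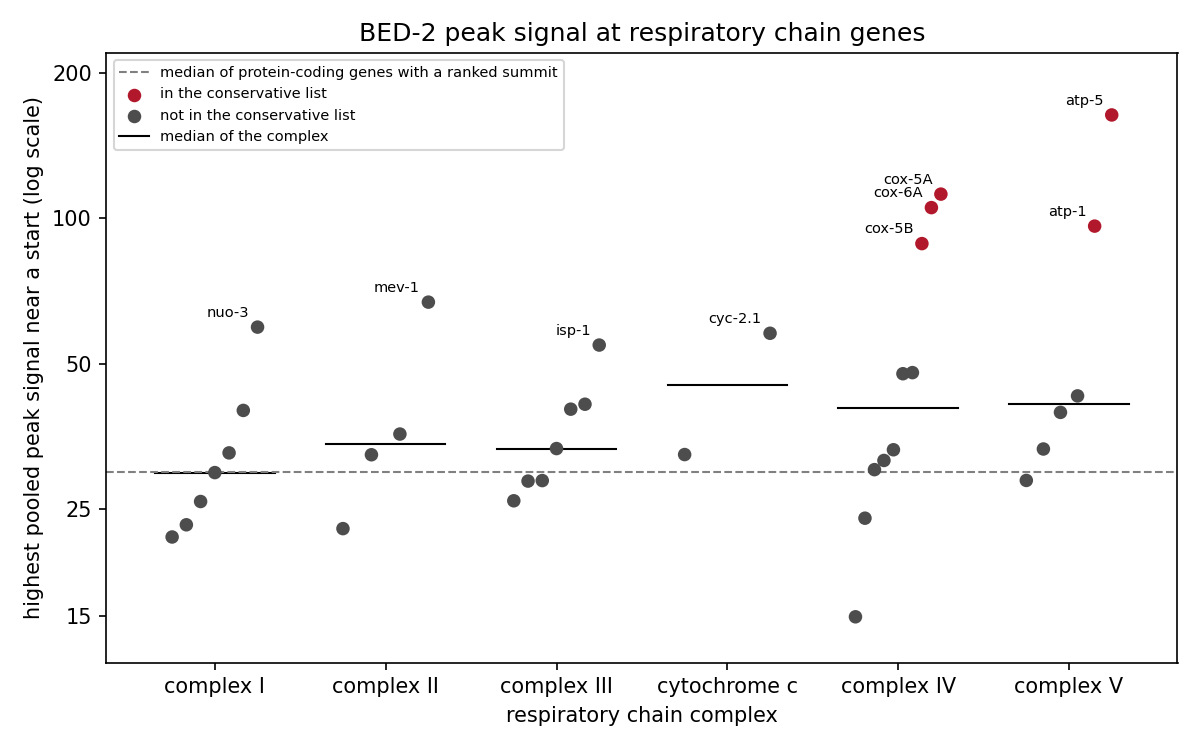
Highest pooled BED-2 peak signal (log scale) within 1000 bp of a start for the 36 respiratory chain genes with a ranked summit, by complex; each point is a gene, black lines are medians of the complex and the dashed line is the median of 29.8 over protein-coding genes. The 5 red points in the conservative list all belong to complexes IV and V and lie at 88.6 or above.

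Within complex IV, which hands electrons to oxygen, the bound genes were all structural subunits, 3 of 7, and none of the 8 cox- genes that act in assembly was bound. cox-5A (WBGene00012553, chrIII:12905491-12906619, + strand) encodes a matrix-facing subunit and had a pooled signal of 112.2, with 51.8 in replicate 1 and 64.7 in replicate 2. Its summit lay between genes, 289 bp upstream of its start, which was also the nearest start of any gene. Medians over all peaks of the ranked lists were 14 in replicate 1 and 16.2 in replicate 2. That cox-5A lay above both follows from how bound genes were defined. A further conservative peak overlapped that of cox-5A, with its summit 85 bp upstream of the start and a pooled signal of only 6.77. cox-5A was bound in each replicate's own list and under all 8 alternative settings that apply to single genes.

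cox-5B (WBGene00000371, chrI:9788725-9790050, + strand, also known as cco-1), whose knockdown is widely used to induce the mitochondrial unfolded protein response, had a pooled signal of 88.6, with 41.1 in replicate 1 and 44.6 in replicate 2. The replicates differed by 0.12 on the log2 scale. BED-2 peaked 14 bp before that start, between genes. It was the lowest of the bound members and was in the list of neither replicate alone, and it was not bound at a global IDR of 0.001.

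cox-6A (WBGene00006519, chrIII:5081724-5082995, + strand) encodes another small subunit. Its pooled signal was 105.2, with 61.7 in replicate 1 and 47.4 in replicate 2, so that replicate 1 was the higher. The summit was the most distant of the bound members, 854 bp upstream of the start of cox-6A, and it fell inside a non-coding RNA gene, 28 bp from that gene's start. The 101-base window around it has 22 other copies in the genome. How reads that map to several places were treated is not given in the sources used here, and the part of these copies in the signal was not tested. cox-6A was not bound at a distance of 500 bp, nor when a summit counted only for the gene with the nearest start, which left 4 and 3 members bound.

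The other 4 complex IV subunit genes were not bound. cox-6B had a signal of 47.9, with 24.5 and 28.7 in replicates 1 and 2, but that summit lay past the end of cox-6B, in a coding exon of nduc-2, 111 bp from the start of nduc-2, a complex I subunit gene. cox-6C had 30.1, and its summit was nearer the non-coding RNA gene F29C4.9. cox-4 and cox-7C had no ranked summit within 1000 bp. Among the assembly genes, cox-10, the haem O synthase, had the highest signal, 47.6 (25.2 and 19.7 in replicates 1 and 2), at a summit nearer Y38E10A.24. The haem A synthase gene cox-15 had 33.1, cox-16 had 31.5, the copper chaperone gene cox-11 had 23.9 and the insertase gene cox-18 had 14.9, the lowest of all members. cox-14, cox-17 and cox-19 had no ranked summit.

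Of the 6 complex V members, atp-5 and atp-1 were bound and the other 4 genes were not. The naming rule leaves out further ATP synthase genes, among them asb-1 and F58F12.1, and none of those read here was bound. atp-5 (WBGene00007385, chrV:11122901-11123867, − strand), which encodes a subunit of the peripheral stalk, had the highest signal of all members, 163.7, with 71.4 in replicate 1 and 89.1 in replicate 2. Its rank in the pooled list was 47 of 82301 peaks. The summit lay between genes, 256 bp upstream of atp-5 and 63 bp from the start of lmtr-3, a divergent gene of the LAMTOR family whose start is 319 bp from that of atp-5. The peak cannot be assigned to one of the pair from its position, and with the nearest start alone it counted for lmtr-3. Under the other 7 alternatives atp-5 was bound.

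atp-1 (WBGene00010419, chrI:12652277-12654655, + strand), the catalytic-head alpha subunit, had a pooled signal of 96.3, with 48.4 in replicate 1 and 47.8 in replicate 2. The replicates were nearly equal, at a log2 ratio of -0.02. The summit lay 27 bp downstream of the start, in the 5′ UTR, and atp-1 was therefore not bound when only upstream summits counted. It was in the list of replicate 1 alone and not in that of replicate 2, and was not bound at a global IDR of 0.001. The divergent gene mcrs-1 starts 190 bp from atp-1.

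The other ATP synthase members were not bound. atp-3, which encodes the oligomycin sensitivity-conferring subunit, had 42.8, with 20.6 and 26.4 in replicates 1 and 2, at a summit nearer F27C1.2. asb-2, a stalk subunit b gene, had 39.6 (15.5 and 24.1 in replicates 1 and 2). The coupling factor gene atp-4 had 33.3, and atp-2, the beta subunit that forms the catalytic sites together with the alpha subunit, had 28.6 (12.5 and 19.2). The alpha and beta subunits are present in equal numbers in the enzyme. BED-2 signal was 96.3 at atp-1 against 28.6 at atp-2, and was higher at atp-1 in both replicates. This shared direction largely follows from atp-1 being bound, since the conservative list holds peaks that rank high in both. The difference was not tested.

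No complex I gene reached the threshold. nuo-3, which encodes an accessory subunit, had the highest signal, 59.5 at a position 40 bp past its internal start, and each replicate had a matched peak, of 29.5 and 23.6. nuo-4 had 39.97, in a coding exon and with a matched peak in replicate 1 only, and nuo-6, whose mutation extends lifespan, had 32.6 with a peak in replicate 2 only. In complex I, 6 of the 7 summits, all unbound, were downstream of the start and 1 was upstream, where 47.7% were upstream over protein-coding genes. The flavoprotein gene nuo-1 had 23.2 at a summit inside the non-coding RNA gene C09H10.13, and nuo-5, which encodes the large iron-sulphur subunit, had 29.7 at an intronic sequence with 35 other copies. The core genes gas-1 and nuo-2 had 25.9 and 21.8.

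In complex II, mev-1 came closest to the threshold of all unbound members. mev-1 (WBGene00003225, chrIII:10334277-10335168, + strand) encodes the cytochrome b subunit that anchors succinate dehydrogenase in the membrane, and its mutant is hypersensitive to oxidative stress. Its pooled signal was 67.0, with 41.9 in replicate 1 and 27.1 in replicate 2, so that replicate 1 was the higher. The −log10 of its global IDR was 1.65 against the 2.00 needed. The summit lay 147 bp upstream of mev-1 and 112 bp from the divergent gene jmjd-4. In the optimal list, the other thresholded list of the pooled data, mev-1 was bound and the members bound rose to 6, where 2.64% of protein-coding genes were.

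The remaining complex II genes were not bound, and 2 of the 3 with a ranked summit exceeded the median of 29.8 over protein-coding genes. The flavoprotein genes sdha-1 and sdha-2 had 35.7 (21.3 and 19 in replicates 1 and 2) and 32.4 (12.6 and 18.7), the first at a summit inside the snoRNA gene D2021.6. The iron-sulphur gene sdhb-1 had 22.7, with 16.3 and 8.92 in replicates 1 and 2. sdhd-1, the other membrane anchor, had no ranked summit.

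Complex III and cytochrome c genes also stayed below the threshold. isp-1, which encodes the Rieske iron-sulphur protein and whose mutation extends lifespan, had 54.6, with 20.8 in replicate 1 and 33.1 in replicate 2. That summit lay 760 bp upstream of isp-1, in an intron of islo-1. ucr-1 had 41.2 with a matched peak in replicate 2 only, and ucr-2.1 had 40.2 (12.9 and 26.7 in replicates 1 and 2). The other ucr- genes, ucr-2.2, ucr-11 and ucr-2.3, had 28.6, 28.5 and 26.0, below the 29.8 of the median protein-coding gene. The cytochrome c1 gene cyc-1 had 33.3, and no peak of either replicate's own list overlapped that pooled peak.

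The cytochrome c genes differed from each other. cyc-2.1 had 57.8, with 19 in replicate 1 and 32.2 in replicate 2, at a summit in its own intron, 81 bp upstream of its internal start. cyc-2.2 had 32.4, with 17 and 15.6, in a coding exon of cubn-1. The signal of cyc-2.1 was higher than that of cyc-2.2 in both replicates, but only slightly in replicate 1 (19 against 17). cyc-2.1 starts 111 bp after the end of the ribosomal protein gene rpl-20 on the same strand. Within 2000 bp of a start, cyc-2.1 and ucr-11 were also bound and the count was 7.

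Bound genes led the members in both replicates, with 1 exception. In replicate 2 the 5 bound genes were the 5 highest members, and in replicate 1 mev-1 (41.9) lay just above cox-5B (41.1). The conservative list is itself made of peaks that rank high in both replicates, so this order follows from how bound genes were defined. Of the 36 members with a ranked summit, 24 had an overlapping peak in both replicate lists (66.7%, against 46.5% of protein-coding genes), 9 in one and 3 in neither. Over the 24, Pearson's r of log2 signal was 0.73 and Spearman's rho was 0.67, and over the 19 unbound ones they were 0.26 and 0.36. These values describe genes that share libraries and peak calls. The log2 ratio of replicate 2 over replicate 1 had a median of 0.27 over the 24 members and 0.22 over 7477 protein-coding genes. It was lowest at ucr-2.3 (-1.26), sdhb-1 (-0.87) and mev-1 (-0.63), and highest at nuo-1 (1.08), ucr-2.1 (1.05) and cox-11 (0.81), all unbound genes. The bound members lay between -0.38 and 0.32, a range that the definition of bound also limits. The ratios compare lists whose signal scales are not given, and are to be read against the 0.22 of all genes.

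**Figure D2:**
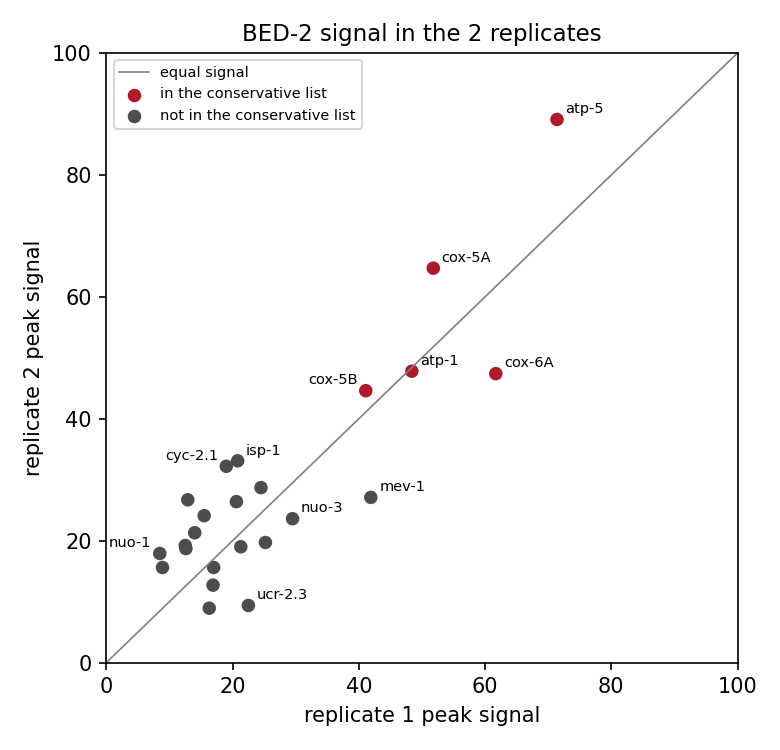
Peak signal in replicate 1 against replicate 2 for the 24 respiratory chain genes with a peak in both replicate lists; the line marks equal signal. The 5 bound genes (red) lie at 41.1 or above in replicate 1 and 44.6 or above in replicate 2, higher in replicate 2 than every unbound gene.

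In the thresholded list of replicate 1 alone, 4 members were bound (cox-5A, cox-6A, atp-1 and atp-5), where 1.17% of protein-coding genes were. In that of replicate 2 alone, 3 were bound (cox-5A, cox-6A and atp-5), where 1.15% were. The list of replicate 2 alone thus lacked atp-1 and cox-5B, and that of replicate 1 alone lacked cox-5B. These lists are shorter, with 238 peaks in replicate 1 and 256 in replicate 2, against 615 in the conservative list. The cause of the lost calls was not tested. Members of other complexes were bound in neither replicate's list.

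Bound summits lay mostly upstream of the start, and unbound ones on both sides. Of the 5 bound members, 4 had the summit upstream, between 14 and 854 bp away, and atp-1 had it 27 bp downstream. Most bound genes of any kind also had an upstream summit. Counting upstream summits only, 2.24% of protein-coding genes were bound, against 2.62% with both sides. Over the 36 members, 18 summits were upstream and 18 downstream, with a median distance of 318 bp, against 47.7% upstream and 452 bp over protein-coding genes. The member's own start was the nearest of any gene for 26 of the 36 (72.2%, against 77.6% of protein-coding genes). Among bound genes it was the nearest for 3 of the 5 members, against 53.5% of bound protein-coding genes. Counting only the nearest start, those 3 members, atp-1, cox-5A and cox-5B, were bound, where 1.44% of protein-coding genes were.

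**Figure D3:**
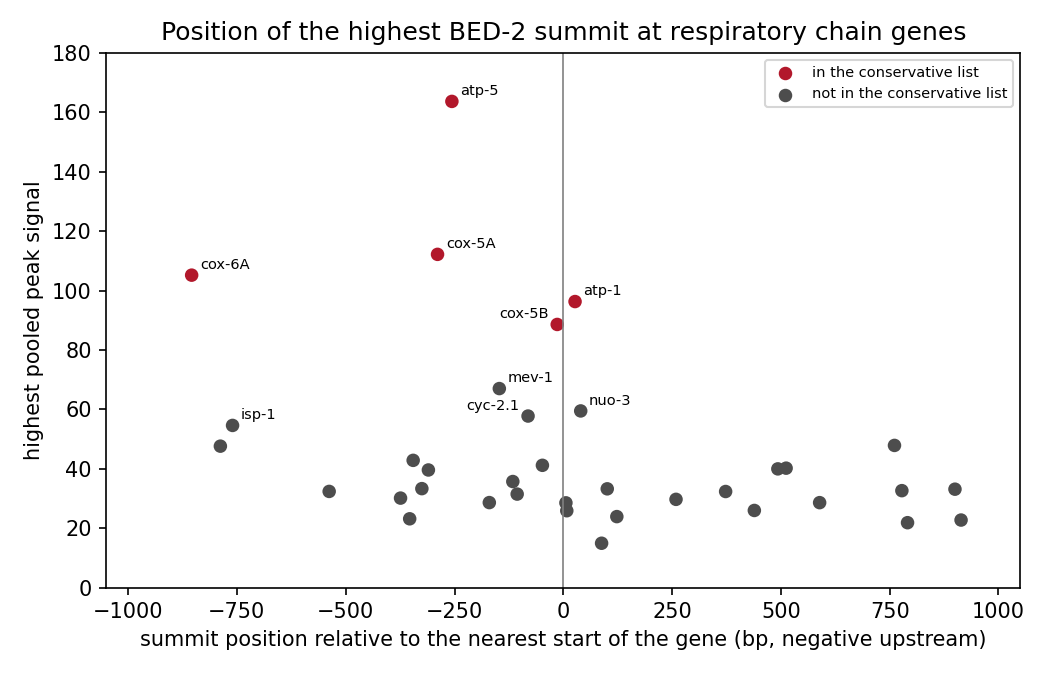
Highest pooled signal against the position of its summit relative to the nearest start of the gene (bp, negative upstream) for the 36 respiratory chain genes with a ranked summit. Of the 5 bound genes (red), 4 lie upstream and atp-1 lies 27 bp downstream.

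Many respiratory chain genes begin close behind another gene on the same strand, the arrangement typical of C. elegans operons, in which a downstream gene is transcribed from a shared upstream promoter. Operon annotation itself was not used. In 15 of the 42 members (35.7%) the start lay within 500 bp of the end of a protein-coding gene on the same strand, against 18.1% of protein-coding genes. Examples were nuo-4 behind rnp-7 (103 bp), ucr-11 behind dad-1 (102 bp), atp-4 behind alh-4 (96 bp) and sdha-2 behind ndua-13 (238 bp). None of these 15 was bound, which allows a share of up to 21.8%, while 5 of the other 27 were. Over all protein-coding genes the shares were 1.58% of 3618 genes so placed and 2.85% of the other 16355. Of the 7 complex IV structural subunits, 0 were so placed, against 5 of the 8 cox- assembly genes.

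GC content at the summit was higher in bound than in unbound members, and the difference was not tested. Median GC content of the 101-base windows was 53.5% in the 5 bound members and 43.6% in the 31 unbound ones. Over protein-coding genes it was 49.5% at the 523 bound and 41.6% at all with a summit. The words ACGCGC and GTACAC, which an earlier look at these same peaks had singled out, were searched on both strands. GTACAC was in 2 of the 5 bound windows, at cox-5A and cox-5B, and in 3 of all 36 (8.33%, against 3.14% of protein-coding windows and 12.8% of bound ones). ACGCGC was in 1 of the 5, at cox-5B, and in 2 of 36 (5.56%, against 3.13% and 18%), the other being mev-1. TTTCAG, the consensus of the worm splice acceptor, was in 0 of the 5 and in 9 of the 36 (25%, against 17% and 6.50%). The windows of atp-5 and sco-1 printed above hold neither of the first pair of words.

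Genes of the same pathway that the naming rule leaves out were read in the same way. Of 98 such genes in 7 lists, 2 were bound (2.04%, against the 2.62% of all protein-coding genes), and both act in the assembly of complex IV. sco-1 (WBGene00015297), which delivers copper to cytochrome c oxidase, had a pooled signal of 199.9, above every member, with 80 in replicate 1 and 114 in replicate 2. Its summit lay 218 bp upstream of its start, the nearest start of any gene. coa-3 (WBGene00018046), an assembly factor of the core catalytic subunit, had 137.3, with 66.0 and 73.5, at a summit 578 bp upstream of it and 216 bp from the start of F35D11.4. They were 2 of 12 in the assembly list, in which nuaf-3 (54.8, at a summit nearer prx-14) and coa-7 (43.2) were the highest unbound.

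None of the 35 other subunit genes was bound, which allows a share of up to 10%. They include most accessory genes of complex I and further ATP synthase genes. Their highest signals were 58.4 at F58F12.1, the delta subunit of the ATP synthase, and 52.7 at R53.4, at a summit nearer R53.11. asb-1, the germline paralogue of asb-2, had 30.8. Coenzyme Q synthesis genes (0 of 8) were led by coq-4 (39.5) and coq-5 (38.8). Citrate cycle and pyruvate dehydrogenase genes (0 of 19) were led by fum-1, which encodes fumarase. It had 68.2, with 30.7 and 34.0 in replicates 1 and 2 and a −log10 IDR of 1.88, just under the threshold. ogdh-1 followed with 49.6.

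ADP/ATP carrier and porin genes (0 of 6) were led by ant-1.1 (44.7) and ant-1.2 (39.4). Genes of mitochondrial DNA maintenance (0 of 5) were led by the RNA polymerase gene rpom-1 (52.3) and the helicase gene twnk-1 (41.3). Those summits were nearer the starts of Y105E8A.36 and F46G11.8. Import genes (0 of 13) were led by tomm-20 (47.9) and tin-9.1 (47.5). Medians of these lists lay between 32.1 and 40.9, against 29.8 over all protein-coding genes.

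**Figure D4:**
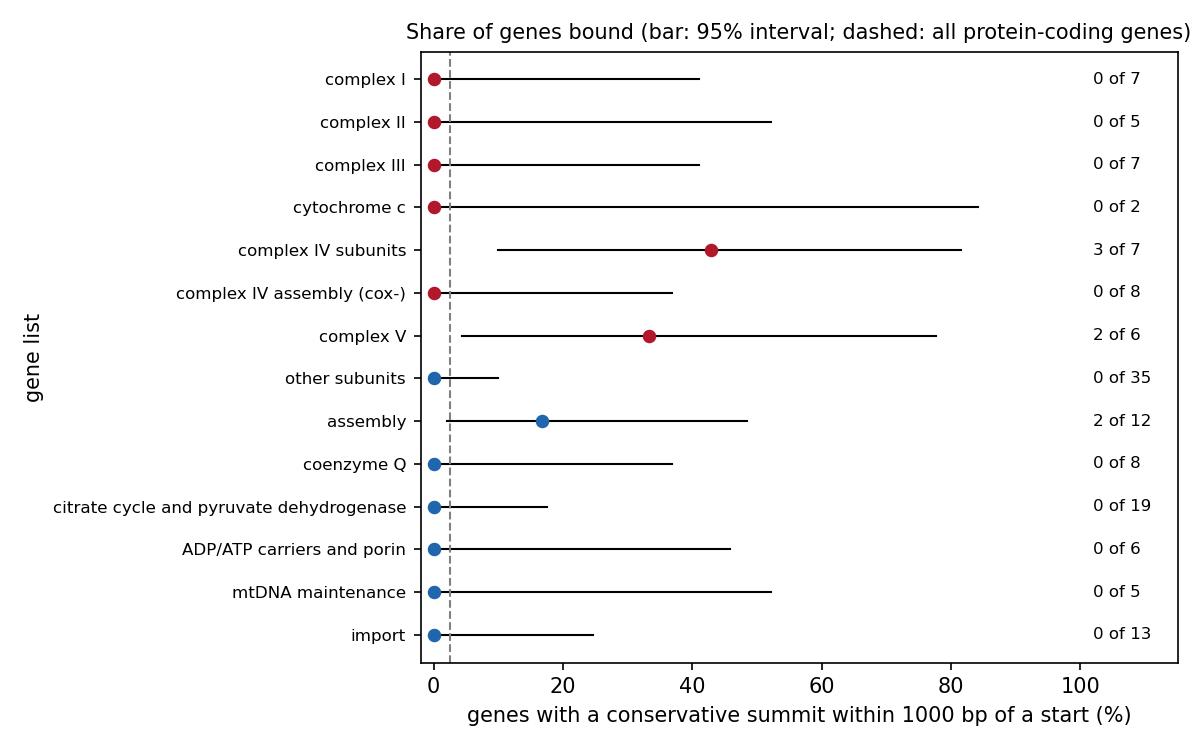
Share of genes bound (points, %) with 95% Clopper-Pearson intervals (bars). Red points are the members of each respiratory chain complex and blue points are further mitochondrial gene lists, which hold other subunits of these complexes. Counts are at the right and the dashed line is the 2.62% of all protein-coding genes. Points above 0 are complex IV subunits (3 of 7), complex V (2 of 6) and the assembly list (2 of 12).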

How the data were processed

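ChIP-seq peak lists of 2 replicates were used, as the authors deposited them on assembly ce11. Per the text deposited beside the samples, series lists derive from both alignments and a control. Neither aligner nor peak caller is named in the sources used here. The deposited columns used were the peak signal, the score (lowest value 830 in the conservative list), the global IDR on a −log10 scale, and the summit offset. Another 2 columns of matched-peak signal were not used. Pooled signals were not compared with single-replicate signals gene by gene, and the replicate lists were compared as deposited, with no rescaling. Medians from single-replicate lists are given only as other settings.

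Transcript starts came from Ensembl release 115 (WBcel235, the ce11 coordinates), and no peak passed a chromosome end. A replicate's signal is its highest overlapping peak (at least 1 base). Copies were blastn 2.17.0 hits of at least 50 bases and 80% identity. Intervals are 95% Clopper-Pearson. No statistical test was run, since there is 1 group. The step that assigns summits to genes was checked on simulated summits. Software was Python 3.11.15 with scipy 1.17.1, pandas 2.3.3, numpy 2.4.6 and matplotlib 3.10.9.

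Members, lists and words were chosen with earlier results of these data known. Named genes are all bound members, the 3 highest per complex (all of complex II and cytochrome c), the 5 highest unbound, those with no ranked summit, and the 3 at each end of the replicate ratio. Neighbours of bound members and, from further lists, bound genes and the 2 highest unbound were added. Other members are named to account for all 42. The summit sequence at cox-6A and the name of the gene over it are not reported here.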

Additional observations from a re-analysis of the deposited data

How the results depend on the processing

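Counts and medians were recomputed under other settings. At a global IDR of 0.001, 3 members were bound (atp-5, cox-5A and cox-6A) with 0.991% of protein-coding genes, and complex V kept 1. Counting the nearest start only left 3 members, 1.44% of genes and 1 in complex V, with a median signal of 23.9 in complex IV and a median distance of 245 bp. Upstream summits only left 1 in complex V and a median distance of 364 bp. The optimal list added 1 in complex II, and the other ranked list gave a median distance of 362 bp. At 500 bp the medians were 27.3 in complex III and 24.0 in complex IV, with a distance of 162 bp. At 2000 bp complex III had 1 bound gene and a median of 40.2, all members had a median of 40 and the distance was 512 bp. With 1 replicate left out in turn, the other's own list was used, which is shorter than the conservative one. There 3 to 4 members were bound with 1.15% to 1.17% of genes, and complex V had 1 to 2. Medians then were 19.8 to 23.3 for members, 15.9 to 22.1 for complex I and 21.5 to 26.7 for complex III. They were 17.9 to 26.5 for complex IV and 19 to 25.3 for complex V. These signals come from single-replicate lists, whose scale is not given, so they are not to be read against the pooled medians. Median distances were 398 to 432 bp. The cause of these shifts was not tested. Without the 3 members whose summit window recurs in the genome, a choice made after seeing the data, 4 were bound. None of the 7 complex I members was bound under any of these settings. The further lists, which hold most accessory genes of complex I, were not recomputed under them. No paired analysis was possible because there is 1 group. Depth is unknown, so it is not known which unbound genes deeper sequencing would add.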

Other observations

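The mitochondrial genome encodes 12 further proteins of these complexes in the annotation used. Each of the 8 peak lists held 0 peaks on the mitochondrial genome. Whether reads from it were kept is not given in the sources used here.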
